A study of Bos taurus with 6 samples.

Results

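Mitotic genes are the genes whose products carry a cell from the end of DNA replication through chromosome segregation to the parting of the daughter cells. They were examined in primary bovine aortic endothelial cells, the cells that line the aorta, after 24 hours with TGF-beta 1 at 5 ng/ml (TGFB cultures) and in cultures of the same cells left without treatment (Basal cultures). The cells had been freed from bovine aorta with collagenase, and the labels give no strain, sex or age of the animals. There were 3 arrays of TGFB cultures and 3 of Basal cultures. They came from 3 cultures according to the labels, which do not say whether these were separate animals, so p-values measure the spread between these arrays and that may be technical. The genes were a list of 46 with known roles in mitosis, chosen with earlier results of these data known. Shares of all genes given beside their counts are therefore descriptions and not a test of the list. The annotation of the array gave 34 of them a probe set of their own, out of 9162 named genes in all. PTTG1 had no probe set that was annotated to it alone. TTK, CENPE, NUF2, SPC25, NEK2, KIF11, PRC1, ANLN, RACGAP1, TOP2A and MKI67 were not analysed here. All levels are log2 expression as deposited, and each difference is TGFB minus Basal on that log2 scale.

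Entry into mitosis is driven by the kinase CDK1 bound to cyclin A or B. The kinetochores assembled on the centromeres then capture spindle microtubules, and a checkpoint holds the cell until all are attached. Its release lets the anaphase-promoting complex with CDC20 mark cyclin B and securin for destruction. The chromosomal passenger complex and the central spindle guide the final cleavage. Most of these genes are transcribed late in the cell cycle, so their RNA in a culture goes with the share of cells in that phase. TGF-beta is known to slow the proliferation of endothelial cells in culture. In RNA from whole cultures, fewer dividing cells and less mitotic RNA per cell cannot be told apart.

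Array medians lay between 5.88 and 5.92 log2, and their 25th percentiles between 4.52 and 4.60. Precision is limited by there being 3 arrays in each group. Of 13 endothelial markers 12 averaged above the median probe set, with PECAM1, the platelet endothelial adhesion molecule, between 11.73 and 12.43. The 13 summed to 16461 to 21237 intensity units in TGFB cultures and 15670 to 22765 in Basal cultures. Of them CLDN5, a tight junction protein, fell by 3.17 (SE 0.41, limma adjusted p = 0.0371). At an unadjusted p under 0.05 (limma) 5 were lower, namely CLDN5, PECAM1, CDH5, KDR and ERG. At that level 2 were higher, ENG at 0.99 (SE 0.38) and EMCN at 0.82 (SE 0.20). Of all genes 11.4% were lower and 5.99% higher at that level. Of the leukocyte markers 8 of 9 lay below the median probe set, as did 6 of 7 epithelial or mesothelial and 4 of 4 erythroid markers. So did 6 of 9 fibroblast and pericyte markers, but only 2 of 7 smooth muscle markers. The fibroblast and pericyte markers summed to 2777 to 5232 intensity units in TGFB cultures and 2017 to 2946 in Basal cultures. Among them COL1A2, a collagen chain, lay between 10.65 and 12.23 and stood at 0.93 (SE 0.33, limma adjusted p = 0.221). Smooth muscle markers summed to 4396 to 5695 intensity units in TGFB cultures and 1361 to 1696 in Basal cultures, and of 7 such markers TAGLN alone rose (2.19, SE 0.16, limma adjusted p = 0.0188). The part of these marker shifts in the mitotic values was not tested. The arrays fell along their first principal component (63.4% of the variance) into TGFB 1, Basal 1 and Basal 2 on one side, and TGFB 2, TGFB 3 and Basal 3 on the other. These are called the first and second array set. Most Basal arrays are in the first and most TGFB arrays in the second, so treatment and array set are partly confounded. The source of this split is not given by the labels, and results that rest on it are given with and without it.

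Mitotic genes were lower in TGFB cultures. Of the 34 measured, 6 fell past the threshold and none rose (limma, Benjamini-Hochberg adjusted p under 0.05 over all genes), while 1.17% of all genes tested fell in this way, 0.557% rose and 1.72% did either. The 6 were CDC20, STMN1, CCNB2, TACC3, CDCA3 and HMGB2. The count depended on the arrays and the prior: without any 1 of TGFB 1, TGFB 2, TGFB 3, Basal 1 or Basal 2 no member passed (limma, which then called 0 to 8 of all genes, with 1010 to 1359 at an unadjusted p under 0.05). Without Basal 3, 15 members fell, and limma-trend called STMN1 alone. At an unadjusted p under 0.05, 19 of 34 were lower and none higher, against 11.4% and 5.99% of all genes. The difference was negative in 32 of 34 members and in 55.6% of all genes. The median difference was -0.56 over the members and -0.03 over all genes. In 21 of 34 members every TGFB array lay below every Basal array, as it did in 15.1% of all genes. An exact permutation test of a single gene could reach no p under 0.1 with these group sizes. A change of at least 1.5-fold downward was seen in 15 members and in 7.09% of all genes.

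**Figure D1:**
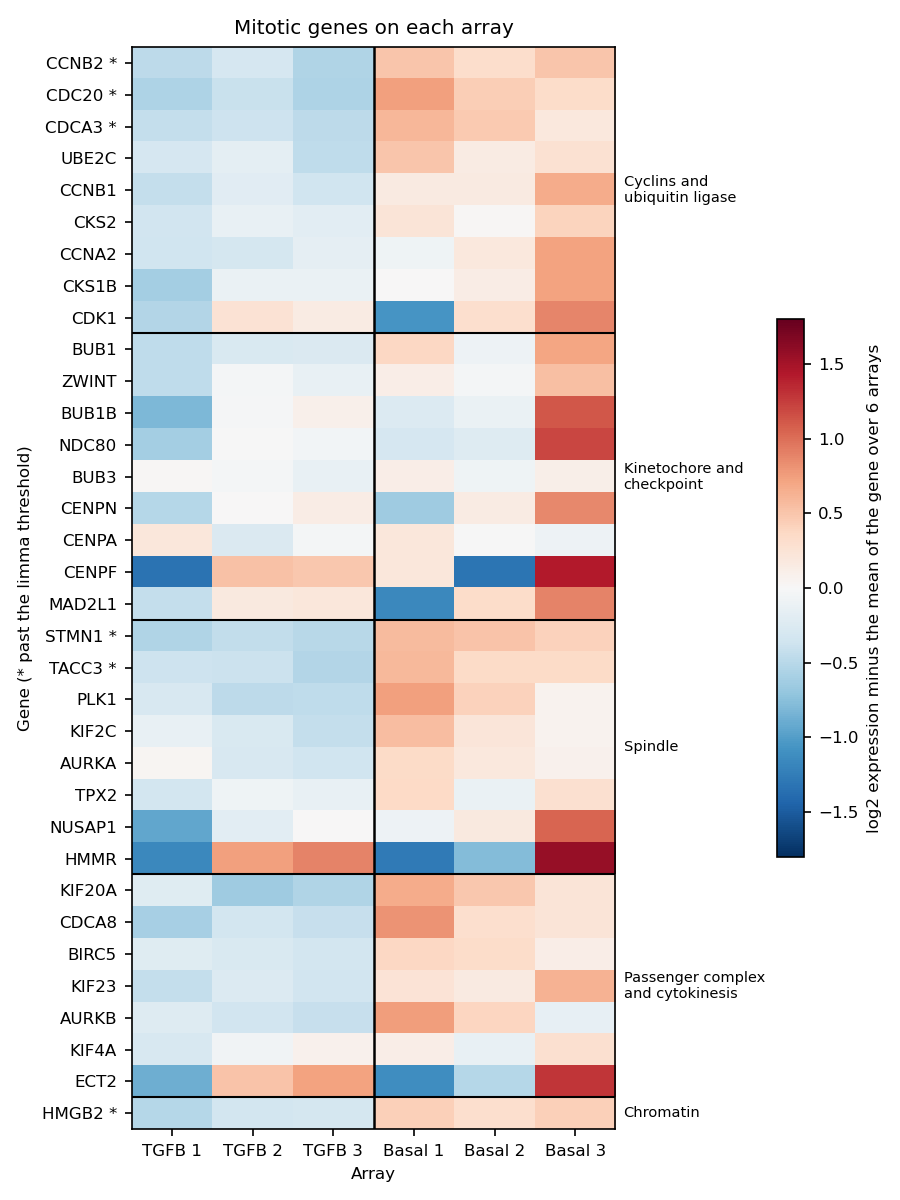
Log2 expression of the 34 mitotic genes on each array, as the deviation from the mean of the gene over 6 arrays (red above, blue below), with TGFB arrays at left, Basal arrays at right and rows grouped by role. Most rows are blue on all 3 TGFB arrays, and CENPF, HMMR and ECT2 change within the groups.

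Regulators of mitotic entry and exit held 3 of the 6 calls, in 9 measured genes, where 1.17% of all genes fell. Their median difference was -0.61. CDC20, which activates the anaphase-promoting complex, measured 8.23, 8.39 and 8.23 log2 in TGFB cultures 1 to 3, against 9.52, 9.22 and 9.11 in Basal cultures 1 to 3. CCNB2, a B-type cyclin, measured 8.16, 8.34 and 8.09 in TGFB cultures, against 9.14, 8.95 and 9.13 in Basal cultures. CDCA3, which helps to trigger mitotic entry by promoting destruction of the inhibitory kinase WEE1, measured 7.28, 7.34 and 7.23 in TGFB cultures, against 8.30, 8.18 and 7.89 in Basal cultures. In all 3 genes the TGFB arrays lay close together and below every Basal array. CDC20 fell to 0.499 times its basal level (95% interval 0.394 to 0.632, limma adjusted p = 0.0371). CCNB2 fell to 0.544 times (0.444 to 0.665, limma adjusted p = 0.0371), and CDCA3 fell to 0.558 times (0.444 to 0.701, limma adjusted p = 0.0464).

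The other members of this group did not pass over all genes. UBE2C, the conjugating enzyme that works with the anaphase-promoting complex, stood at -0.61 (SE 0.14, limma adjusted p = 0.0940), between 8.99 and 9.27 in TGFB cultures and between 9.59 and 9.94 in Basal cultures. CCNB1, the main mitotic cyclin, stood at -0.66 (SE 0.17). Its Basal 3 value of 9.78 was above those of Basal 1 and Basal 2, at 9.27 and 9.28. CCNA2, the cyclin of S phase and early mitosis, stood at -0.56 (SE 0.21). The small CDK-binding subunits CKS1B and CKS2 stood at -0.57 (SE 0.24) and -0.44 (SE 0.14). In these 5 genes every TGFB array lay below every Basal array, as in 8 of the 9 and in 15.1% of all genes. Their limma adjusted p ran from 0.0940 for UBE2C to 0.301 for CKS1B. CDK1, the kinase that the cyclins activate, was the exception. It measured 7.95, 8.74 and 8.62 in TGFB cultures, against 7.42, 8.79 and 9.35 in Basal cultures. The Basal values of CDK1 spanned all its TGFB values, and its difference of -0.08 had a 95% interval from -1.33 to 1.16.

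Spindle genes gave 2 calls among 8 measured, where 1.17% of all genes fell. Their median difference was -0.65. STMN1, stathmin, which destabilises microtubules and is shut off by phosphorylation in mitosis, measured 11.01, 11.10 and 11.06 in TGFB cultures, against 12.12, 12.06 and 11.97 in Basal cultures. It fell to 0.503 times its basal level (0.426 to 0.594, limma adjusted p = 0.0231), and its groups were separated by far more than either of them spread. TACC3, which stabilises the microtubule fibres at kinetochores, measured 7.81, 7.80 and 7.67 in TGFB cultures, against 8.78, 8.53 and 8.53 in Basal cultures. It fell to 0.553 times (0.454 to 0.675, limma adjusted p = 0.0371). PLK1, a kinase that acts from centrosome maturation to cytokinesis, measured 7.83, 7.66 and 7.67 in TGFB cultures, against 8.86, 8.54 and 8.19 in Basal cultures. Its groups were apart as well, but its basal spread was wider and it stood at -0.81 (SE 0.19, limma adjusted p = 0.0980).

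KIF2C, a kinesin that takes microtubules apart at centromeres, stood at -0.56 (SE 0.16). The centrosomal kinase AURKA stood at -0.41 (SE 0.15), with its groups also apart. TPX2, the spindle protein that activates AURKA, stood at -0.36 (SE 0.16) and its groups overlapped by Basal 2 alone, at 9.60 against 9.38 to 9.63 in TGFB cultures. NUSAP1, which bundles spindle microtubules, stood at -0.75 (SE 0.37). HMMR, a spindle and hyaluronan-binding protein, stood at 0.31 (SE 0.89) and is described with the variable genes. The smallest limma adjusted p of these 5 was 0.152, for KIF2C, and the largest was 0.895, for HMMR.

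Passenger complex and cytokinesis genes had a median difference of -0.66, close to that of the spindle genes, although none of the 7 passed over all genes (limma). At an unadjusted p under 0.05 (limma) 5 were lower, as were 11.4% of all genes. KIF20A, a kinesin that brings the passenger complex to the central spindle, measured 8.63, 8.20 and 8.30 in TGFB cultures, against 9.52, 9.33 and 9.08 in Basal cultures. CDCA8, the passenger subunit borealin, measured 8.41, 8.67 and 8.60 in TGFB cultures, against 9.81, 9.30 and 9.24 in Basal cultures. BIRC5, the passenger subunit survivin, measured 8.40, 8.34 and 8.28 in TGFB cultures, against 8.99, 8.95 and 8.73 in Basal cultures. All 3 had groups apart. They stood at -0.93 (SE 0.17), -0.90 (SE 0.18) and -0.55 (SE 0.12), with limma adjusted p = 0.0657, 0.0823 and 0.0839 in that order. KIF23, the central spindle kinesin, stood at -0.68 (SE 0.15, limma adjusted p = 0.0914). The passenger kinase AURKB stood at -0.66 (SE 0.23, limma adjusted p = 0.218), and its Basal 3 value of 8.01 was near the 7.92 of TGFB 1. KIF4A, a chromosome-bound kinesin, stood at -0.18 (SE 0.16), and ECT2, which activates RhoA for cleavage, at 0.24 (SE 0.72).

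Kinetochore and checkpoint genes had the smallest median difference among the groups with several members, -0.25, in the fit of group alone. Their median range over the Basal arrays, 1.37, was the widest of these groups. None of the 9 passed (limma), and 1 was lower at an unadjusted p under 0.05, as were 11.4% of all genes. All 9 had a negative difference. BUB1, a checkpoint kinase, measured 7.18, 7.37 and 7.38 in TGFB cultures, against 8.01, 7.54 and 8.34 in Basal cultures. It stood at -0.65 (SE 0.21, limma adjusted p = 0.195). ZWINT, a kinetochore scaffold, measured 7.03, 7.45 and 7.36 in TGFB cultures, against 7.62, 7.46 and 8.04 in Basal cultures, so that its groups nearly touched. It stood at -0.42 (SE 0.20, limma adjusted p = 0.341). Those were the 2 kinetochore genes with every TGFB array below every Basal array, as in 15.1% of all genes. BUB1B, the checkpoint protein BUBR1, measured 6.60, 7.38 and 7.50 in TGFB cultures, against 7.16, 7.29 and 8.53 in Basal cultures, so the groups overlapped. BUB3, which recruits BUB1 and BUBR1, stood at -0.10 (SE 0.11) with a narrow interval of -0.37 to 0.16. CENPA, the histone that marks the centromere, lay between 4.44 and 4.91 on all arrays, near their 25th percentile, where RMA values carry no sign that the gene was detected. Whether these groups of genes responded differently from each other was not tested.

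HMGB2, a chromatin protein abundant in proliferating cells, was the only measured member of the remaining group. It measured 9.74, 9.93 and 9.95 in TGFB cultures, against 10.69, 10.56 and 10.69 in Basal cultures, and fell to 0.584 times its basal level (0.485 to 0.703, limma adjusted p = 0.0377). Its 2 groups were far apart relative to their spread.

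**Figure D2:**
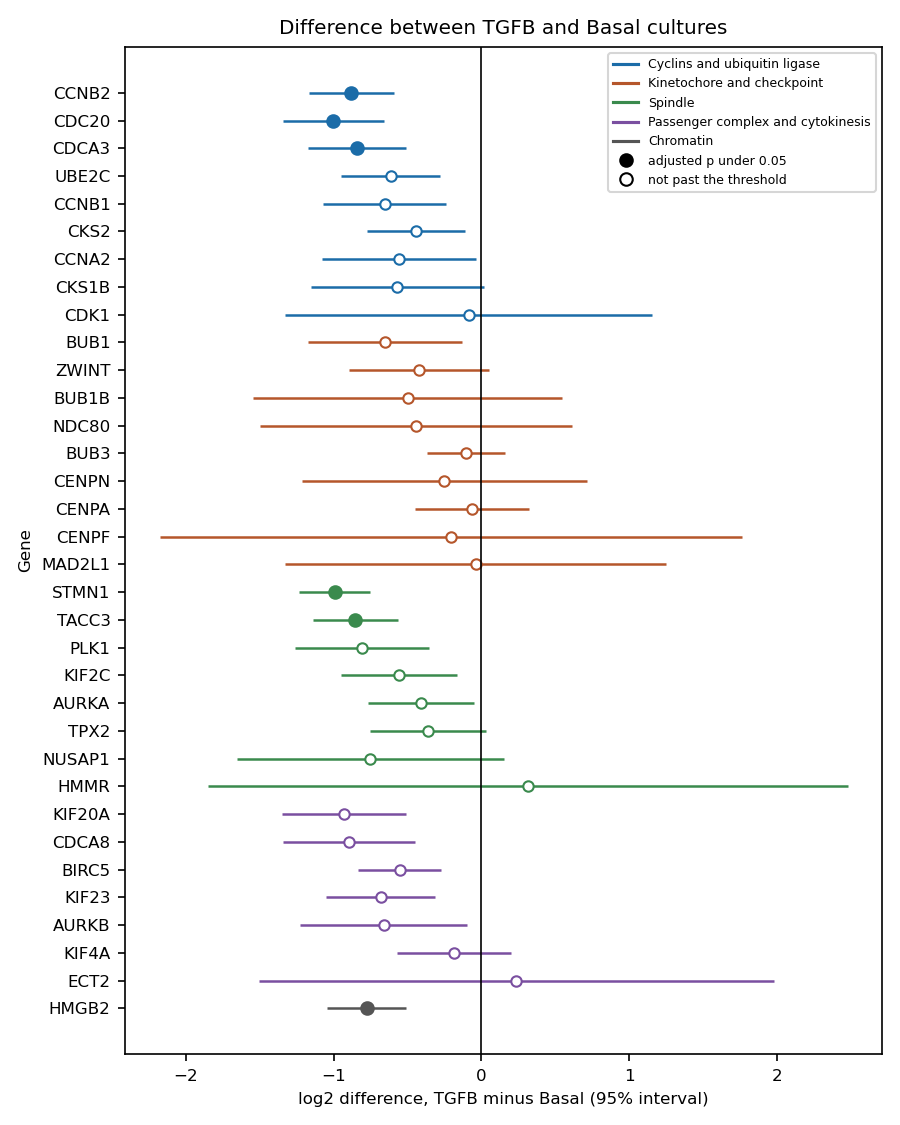
Log2 difference (TGFB minus Basal) of each mitotic gene with its 95% interval from the limma fit, coloured by role, with filled points for genes past the threshold. All 6 filled points lie at or below -0.78, and the intervals of HMMR, CENPF and ECT2 are the widest.

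Members differed in how far replicates spread. In 9 of 34 the Basal arrays ranged over more than 1 log2, as they did in 17% of all genes. The 9 were HMMR, CENPF, ECT2, MAD2L1, CDK1, CENPN, NDC80, BUB1B and NUSAP1, and 5 of them belong to the kinetochore group. This cut was set after the values were seen, and a wide range by itself keeps a gene from passing. In all 9 Basal 3 was the highest Basal array and TGFB 1 the lowest TGFB array. Over all genes Basal 3 was the highest in 32% and TGFB 1 the lowest in 35.2%. Basal 1 was the lowest Basal array in 8 of the 9, the exception being CENPF, and in 25.7% of all genes. These shares over all genes include genes with a narrow Basal range, so they are not a like comparison for members chosen by a wide one.

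HMMR measured 6.91, 8.80 and 8.95 in TGFB cultures, against 6.79, 7.29 and 9.64 in Basal cultures. CENPF, a late-phase protein of the outer kinetochore, measured 6.75, 8.60 and 8.56 in TGFB cultures, against 8.27, 6.76 and 9.49 in Basal cultures. ECT2 measured 6.74, 8.14 and 8.36 in TGFB cultures, against 6.50, 7.12 and 8.91 in Basal cultures. In all 3 genes TGFB 1 lay near the lowest Basal array, and TGFB 2 and TGFB 3 lay together below Basal 3. MAD2L1, the checkpoint protein that blocks CDC20, measured 7.26, 7.87 and 7.90 in TGFB cultures, against 6.53, 8.02 and 8.59 in Basal cultures. Its difference of -0.04 had a 95% interval from -1.33 to 1.25, which includes changes of the size seen in CDC20. The 25 members with a basal range of at most 1 log2 all had a negative difference, with a median of -0.65.

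Control probe sets followed the split of arrays only in part. The middle probe set for elongation factor 1-alpha, a transcript abundant in all cells, measured 8.95, 10.32 and 10.06 in TGFB cultures 1 to 3, against 8.04, 9.54 and 10.23 in Basal cultures 1 to 3. It was lowest on TGFB 1 and Basal 1 within their groups, like most of the variable genes. The 3′ probe set had the same split, with 10.87, 11.49 and 11.47 in TGFB cultures and 10.35, 11.00 and 11.61 in Basal cultures. The 5′ probe set did not, since Basal 2 at 13.51 lay above both TGFB 3 and Basal 3 at 13.48. The GAPDH control gave a 3′ minus 5′ difference, a measure of RNA integrity, of 0.43, 0.26 and 0.35 in TGFB cultures and 0.49, 0.28 and 0.38 in Basal cultures. It was highest on TGFB 1 and Basal 1, but Basal 2 lay below TGFB 3 and Basal 3, so it did not separate the array sets. The same measure for actin did not separate them either, at 1.82, 1.86 and 1.31 in TGFB cultures and 1.70, 1.64 and 1.31 in Basal cultures. The part of RNA quality in the spread of the 9 genes was not tested.

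**Figure D3:**
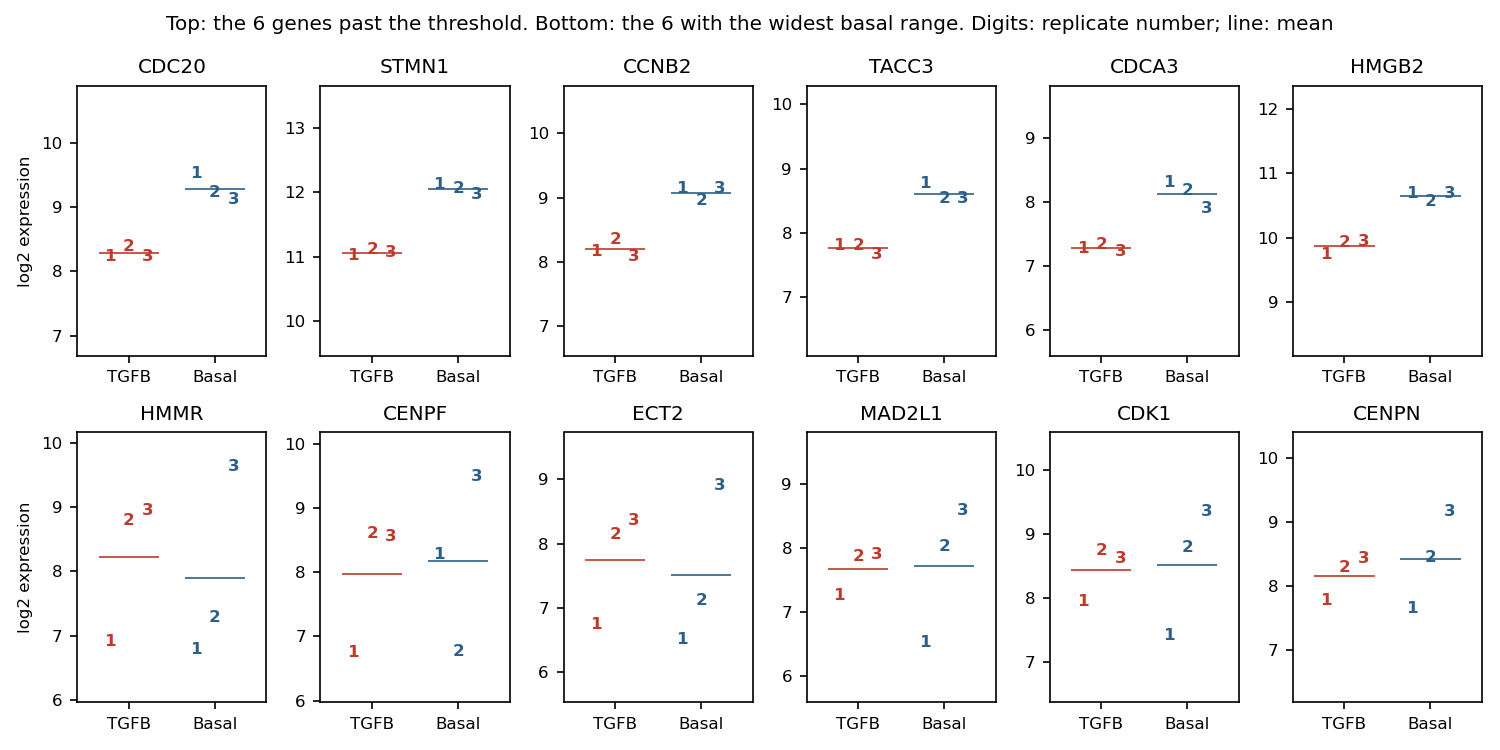
Log2 expression by replicate number in TGFB cultures (red, left) and Basal cultures (blue, right), with the group mean as a line, for the 6 genes past the threshold (top) and the 6 with the widest range among Basal arrays (bottom). Every vertical axis spans the same number of log2 units, and the groups are apart in the top row and overlap in the bottom row.

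Within the array sets the direction was nearly uniform. In the first set TGFB 1 lay below the mean of Basal 1 and Basal 2 in 33 of 34 members, with a median difference of -0.59. In the second set the mean of TGFB 2 and TGFB 3 lay below Basal 3 in all 34, with a median of -0.73. Both held for 33 members and for 35.2% of all genes, and CENPA was the member left out. Medians in the first set were -0.35 for kinetochore genes, -0.62 for entry and exit regulators, -0.68 for spindle and -0.63 for passenger and cytokinesis genes. In the second set they were -0.80, -0.80, -0.64 and -0.61 in that order, so the kinetochore median was the smallest in the first set only. The variable genes also lay lower in both sets, with -0.13 and -0.76 for HMMR, -0.07 and -0.66 for ECT2, and -0.15 and -0.68 for CDK1. MAD2L1 stood at -0.02 and -0.70. In HMMR, ECT2, CDK1, MAD2L1 and CENPN, TGFB 1 lay above Basal 1 and below Basal 2. Their lower value in the first set therefore rests on averaging Basal 1 with Basal 2. Each set has a single array in one of its groups, so these differences have no replicate check of their own. The first set rests on TGFB 1 alone, the lowest TGFB array in 21 of the 34 members and in 35.2% of all genes. The second set rests on Basal 3 alone, the highest Basal array in 18 of the 34 members and in 32% of all genes.

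**Figure D4:**
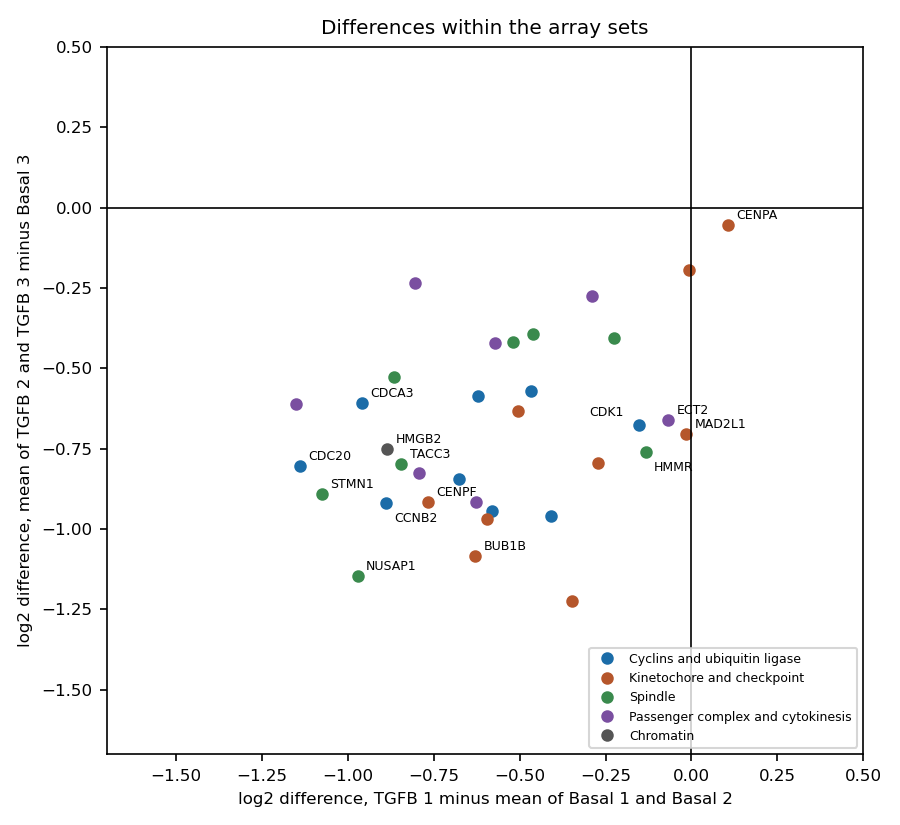
Log2 difference of TGFB 1 from the mean of Basal 1 and Basal 2 (horizontal) against that of the mean of TGFB 2 and TGFB 3 from Basal 3 (vertical), 1 point per mitotic gene, coloured by role. All 34 points lie below the horizontal line at 0, and 33 lie left of the vertical line at 0.

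A fit that took the array sets as blocks was added once the split had been seen. In it 20 of 34 members fell and none rose, where 5.58% of all genes fell. These were 8 of 9 entry and exit regulators, 4 of 8 spindle genes, 4 of 7 passenger and cytokinesis genes, 3 of 9 kinetochore genes and HMGB2. All 6 earlier calls were among them. BUB1B (-0.86, SE 0.14, limma adjusted p = 0.0164) and NUSAP1 (-1.06, SE 0.13, limma adjusted p = 0.00904) were the 2 variable genes that passed. HMMR stood at -0.45 (SE 0.20) and ECT2 at -0.36 (SE 0.22) in that fit, with the opposite sign to the fit of group alone. Without Basal 3, 15 members fell where 11.1% of all genes did, again with all 6 among them. In that fit both remaining Basal arrays belong to the first set and 2 of 3 TGFB arrays to the second, so treatment and array set are partly confounded. They are also partly confounded in the fit of group alone, where 2 of 3 Basal arrays belong to the first set. Calls shared by both fits numbered 13. The sizes of the 6 differences were followed over the 16 alternatives. STMN1 ranged from -1.03 to -0.96, CDC20 from -1.09 to -0.88, CCNB2 from -0.95 to -0.83, TACC3 from -0.89 to -0.77 and CDCA3 from -0.96 to -0.75. HMGB2 ranged from -0.82 to -0.44, and reached -0.44 where its probe sets were averaged. Adjusted p over the alternatives ran from 0.00651 to 0.171 for STMN1, which passed in the most of them, 10 of 16.

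Other probe sets gave a second reading for 13 of the members. Of these 16 further probe sets, 11 were lower in TGFB cultures and 8 were lower at an unadjusted p under 0.05, where 8.37% of all probe sets were, and none was higher at that level. In 11 of the 13 genes all probe sets had the same sign. KIF20A stood at -0.95 (SE 0.20) on its other probe set, CDCA8 at -0.59 (SE 0.11), TPX2 at -0.40 (SE 0.09) and BUB1 at -0.41 (SE 0.09). The other probe set of AURKB measured 7.05, 7.13 and 7.24 in TGFB cultures, against 8.48, 8.21 and 8.02 in Basal cultures. It stood at -1.10 (SE 0.14) and passed among all probe sets (limma adjusted p = 0.0457), where 0.354% fell. HMGB2 was less clear on its dimmer probe set, which measured 5.52, 6.04 and 5.89 in TGFB cultures, against 5.91, 5.48 and 6.39 in Basal cultures, and stood at -0.11 (SE 0.26). The other probe set of ECT2 measured 5.91, 7.40 and 7.55 in TGFB cultures, against 5.99, 6.21 and 8.10 in Basal cultures, and so repeated the low values of TGFB 1, Basal 1 and Basal 2. The signs differed between probe sets in HMMR and BUB3, and the other probe set of BUB3 lay between 3.62 and 3.75 on all arrays.

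**Figure D5:**
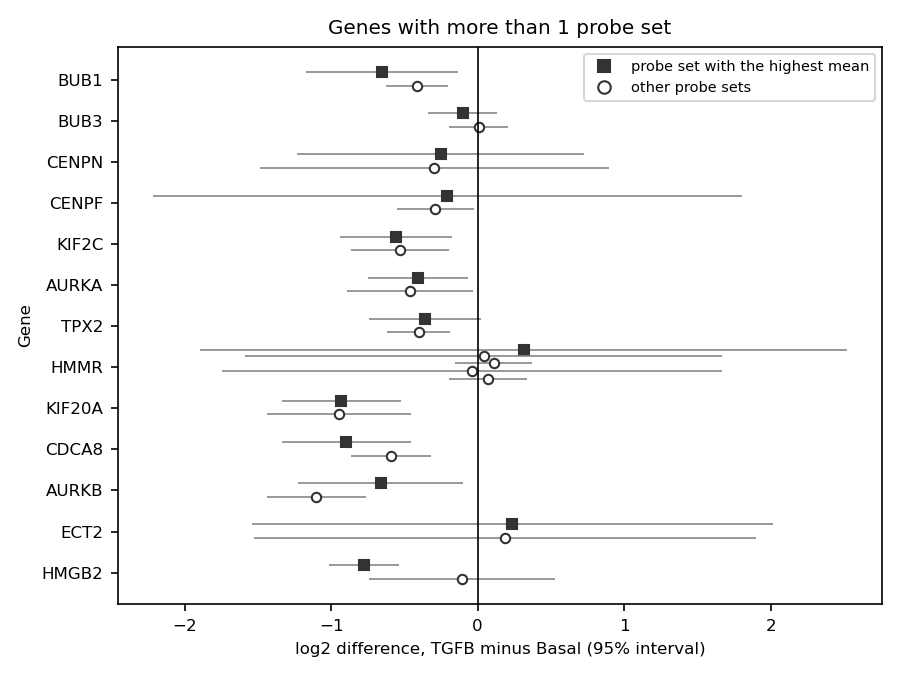
Log2 difference (TGFB minus Basal) with 95% intervals for the 13 mitotic genes with more than 1 probe set, from the limma fit over all probe sets, with squares for the probe set of the highest mean and circles for the others. Of the 16 circles 11 lie left of 0, and AURKB is lower on its second probe set, at -1.10.

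A wider list of mitotic genes by function was also drawn up with earlier results of these data known. Of its genes outside the 46, 68 were measured. Of these 3 fell and none rose (limma), with a median of -0.28, where 1.17% of all genes fell. No call was left without any 1 of the arrays other than Basal 3. Without Basal 3, 20 fell, where 11.1% of all genes did. With the array sets as blocks 22 fell, where 5.58% of all genes did. At an unadjusted p under 0.05, 24 were lower and none higher, against 11.4% and 5.99% of all genes. SPAG5, astrin, a spindle protein, measured 7.51, 7.43 and 7.54 in TGFB cultures, against 8.86, 8.54 and 8.49 in Basal cultures, and fell by 1.14 (SE 0.13, limma adjusted p = 0.0296). CENPT, which links centromeric DNA to the outer kinetochore, measured 5.34, 5.90 and 5.77 in TGFB cultures, against 7.03, 7.19 and 6.86 in Basal cultures. It fell by 1.35 (SE 0.18) and the condensin subunit NCAPH fell by 1.21 (SE 0.17), both with limma adjusted p = 0.0371. The groups were apart in each. CENPM, another centromere subunit, stood at -0.69 (SE 0.12, limma adjusted p = 0.0557).

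Part of that list was grouped into 6 families after the values were seen, and no difference between them was tested. Condensin, which compacts chromosomes, had 6 of 7 subunits lower with a median of -0.70, and 5 of them had every TGFB array below every Basal array. Of all genes 55.6% were lower and 15.1% had groups apart in this way. The anaphase-promoting complex, whose core is present throughout the cell cycle, had 3 of 10 measured subunits lower and a median of 0.12. None passed (limma), and 2 were lower at an unadjusted p under 0.05, as were 11.4% of all genes. Its Basal arrays ranged over 1.70 for ANAPC4, 1.73 for CDC26, 1.34 for ANAPC10 and 1.19 for ANAPC13. The 4 cohesin genes were SMC1A, SMC3 and RAD21, of the ring that holds sister chromatids together, and its loader NIPBL. Of them 2 were lower, with a median of 0.01. SMC1A lay only between 4.84 and 5.12 on all arrays, and the Basal arrays ranged over 1.75 for SMC3 and 1.81 for NIPBL. Of 8 outer kinetochore genes 7 were lower, with a median of -0.31. Of 8 centromere genes 5 were lower, with a median of -0.36 and CENPT as the only call. Of 3 further kinesins 2 were lower, with a median of -0.63.

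Regulators of mitotic entry and of late cell cycle transcription were divided in direction. Of 28 measured, 14 were lower and 14 higher, the median was 0.00, and none passed (limma). At an unadjusted p under 0.05 (limma), 5 were lower and 1 higher, against 11.4% and 5.99% of all genes. MYBL2, the transcription factor B-MYB that activates many mitotic genes, measured 7.87, 7.53 and 7.49 in TGFB cultures, against 8.79, 8.54 and 7.79 in Basal cultures. The groups overlapped through Basal 3, and the difference was -0.74 (SE 0.28, limma adjusted p = 0.245). Without Basal 3, MYBL2 passed at -1.04 (limma adjusted p = 0.0191, against 0.0775 to 0.575 over its other alternatives). WEE1, the kinase that restrains CDK1, stood at -0.20 (SE 0.21). Of the CDK inhibitors, CDKN1A (p21) stood at 0.16 (SE 0.25), CDKN2B (p15) at 0.01 (SE 0.12), CDKN1C (p57) at -0.32 (SE 0.12) and CDKN2C (p18) at -1.30 (SE 0.26, limma adjusted p = 0.0728). CDKN2C measured 7.03, 7.95 and 7.87 in TGFB cultures, against 8.96, 8.94 and 8.87 in Basal cultures. RB1, the retinoblastoma protein that holds cells before S phase, measured 8.40, 7.83 and 8.10 in TGFB cultures, against 6.03, 5.98 and 7.39 in Basal cultures, and stood at 1.64 (SE 0.41, limma adjusted p = 0.112). PLK2, a kinase related to PLK1 that acts at stress and in centriole duplication, stood at -1.33 (SE 0.26, limma adjusted p = 0.0728). LIN37, a subunit of the complex that switches mitotic genes off in resting cells, stood at -0.38 (SE 0.14). FOXM1, CDC25B and CDKN1B were not analysed here.

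DNA replication and nucleotide synthesis genes were also mostly lower. Of 42 measured 34 had a negative difference, as did 55.6% of all genes, and the median was -0.36. Of them 1 fell, TYMS, thymidylate synthase (-1.26, SE 0.14, limma adjusted p = 0.0260), where 1.17% of all genes fell. The count was 0 without any 1 of the arrays other than Basal 3. It was 17 without Basal 3, where 11.1% of all genes fell, and 9 with the array sets as blocks, where 5.58% fell. At an unadjusted p under 0.05, 20 were lower and none higher, against 11.4% and 5.99% of all genes. DUT, UHRF1 and the helicase subunit MCM7 stood at -0.84, -0.98 and -0.90 (limma adjusted p = 0.0657 to 0.0824). Of 10 genes of G1 cyclins and their regulators 1 rose, RGCC, where 0.557% of all genes did. None fell, and the median was 0.03. CDK4, the G1 kinase, stood at -0.69 (SE 0.12, limma adjusted p = 0.0567). Of 13 housekeeping genes none passed (limma), and their median was 0.01. At an unadjusted p under 0.05 (limma), 1 of them was lower and 3 higher, against 11.4% and 5.99% of all genes. The differences between these lists and the mitotic genes were not tested.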

How the data were processed

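The deposited values are log2 expression per probe set from an Affymetrix bovine array, made by the authors; the submitters' processing notes name RMA and affy, without versions. Per the labels' protocols, biotin-labelled RNA came from 4 µg of total RNA. RMA equalises array distributions, compresses changes near background and gives no detection call. Of 24128 probe sets 112 controls were kept out of the fits, 13292 of the rest carried 1 gene symbol, 86 several and 10638 none. By identifier 13263 matched the RefSeq table of ARS-UCD2.0, used for names only. The probe set with the highest mean over 6 arrays represented each gene. No column was unused.

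The test of TGFB against Basal was limma's (version 3.58.1, R version 4.3.3, lmFit and eBayes, group as the only term, two-sided, Benjamini-Hochberg over 9162 genes, no filter on dim genes). The members, lists and rule for named genes were chosen with earlier results of these data known. The rule names every member, shows array values for calls and for the 3 members of each role group with the smallest p, and names the calls, the 4 genes with the smallest p and a fixed set of regulators from the other lists, but fewer from the G1, housekeeping and marker lists. CDK1, the other variable members, the second probe sets and the families were shown after their values were seen. Replicate numbers were checked as pairs: deviations of same-numbered arrays correlated at 0.67, -0.45 and 0.69, so the main test has no pairing. The labels do not say whether same-numbered arrays share a culture. On simulated data with 9162 genes, 3.9% of changes of 0.5 log2, 47.5% of 1 and 81.7% of 2 were recovered, and 49 of 932 calls were false. The simulated noise was independent between genes and arrays and held no split into array sets. These rates therefore need not hold for the arrays here, which had such a split. Figures were drawn with matplotlib 3.10.9.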

Additional observations from a re-analysis of the deposited data

How the results depend on the processing

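Direction and threshold were compared over 16 alternatives, of which the array-set block was chosen after seeing the data. The members' median of -0.56 lay between -0.57 and -0.54 under the scaling, prior, filter and probe set alternatives, between -0.66 and -0.44 without single arrays, and at -0.69 with the array-set block. Limma-trend called 99 genes, 1 of them a member (STMN1), against 158 and 6. With the replicate number as a replicate block 0 genes passed (limma, 2039 at an unadjusted p under 0.05), hence 0 members, 0 other mitotic and 0 replication genes. Whether same-numbered arrays share a culture is not stated, and the correlations of their deviations differed in sign. The array-set block called 878 genes, 20 members, 22 other mitotic genes and 9 replication genes. Leaving out each array gave 0 to 1538 genes, 0 to 15 members, 0 to 20 other mitotic genes and 0 to 17 replication genes, the highest each time without Basal 3. No member was called higher in any of these fits (limma). The sign turned with the array-set block in HMMR (-0.45), ECT2 (-0.36), CENPA (0.026) and CDKN2B (-0.026). It also turned when single arrays were left out, for which the lowest and highest values were -0.63 and 0.33 for CDK1, -0.63 and 0.40 for MAD2L1, -0.18 and 0.052 for CENPA, -0.91 and 0.45 for CENPF, -0.64 and 0.12 for CENPN, -0.71 and 0.043 for NDC80, -0.24 and 1.18 for HMMR, -0.27 and 0.94 for ECT2, -0.062 and 0.29 for CDKN1A, and -0.062 and 0.096 for CDKN2B. The cause was not tested. The number of arrays and a level near background, as for CENPA, limit what these values can show.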
